A study of Mus musculus with 2 samples.

Results

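The genes described here are 40 genes of the unfolded protein response and of the response to amino acid shortage, out of 18193 genes with a probe set that names only them. They were taken by name, as the probe sets whose only gene symbol in the platform annotation was one of these 40. Where a gene had several, the brightest by mean log2 signal stood for it. They fall into 17 genes of folding and quality control in the endoplasmic reticulum (ER), 4 genes of the sensors of ER stress, Xbp1 among them, and 19 genes of the Atf4 and amino acid arm. Expression was measured in fibroblasts of mouse embryos, a primary culture, on 1 Affymetrix array for Phc2 L307R/L307R cells and 1 for wild-type cells. Phc2 belongs to Polycomb repressive complex 1, which keeps developmental genes silent. The L307R missense change lies in the SAM domain of the protein, and the labels give it on both copies of the gene. Both cultures were C57BL/6, from embryonic day 12.5, at passage 1, in medium with fetal calf serum, and the labels name no stress treatment. Each genotype is 1 culture, so a difference between the genotypes has no replicate error, and no test or p-value could be computed.

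Proteins that enter the ER are folded by chaperones and joined by disulfide bonds there. When unfolded protein builds up, 3 sensors in the ER membrane respond. Ern1 (Ire1) splices the mRNA of Xbp1, Atf6 is cut to release a transcription factor, and Eif2ak3 (Perk) phosphorylates the translation factor eIF2-alpha. Phosphorylated eIF2-alpha slows translation in general but favours that of Atf4, a factor that turns on genes for amino acid synthesis, uptake and tRNA charging. Other kinases of eIF2-alpha, among them Eif2ak4 (Gcn2), which senses a lack of amino acids, reach the same factor. Fibroblasts secrete much collagen and other matrix protein, and these pass through the ER.

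The 2 arms are known for different elements in their promoters, and the sequences show which members carry which element. Promoters were taken from RefSeq (GRCm38.p6), 250 bases before to 50 after the start of the gene, and 35 of the 40 genes had one in the table. The ER stress response element (ERSE), bound by Atf6 with the factor NF-Y, was searched as CCAAT, any 9 bases and CCACG on both strands. ERSE-II was searched as ATTGG, any 1 base and CCACG, the core of the Xbp1 element as TGACGTGG, and the C/EBP-ATF response element, to which Atf4 binds with a C/EBP partner, as TGATGNAA. Only Herpud1 held 2 kinds of element, and these did not overlap. ERSE stood in 0.119% of all 32851 promoters and in 7 of the 15 ER folding genes that had a promoter, Hspa5, Calr, Canx, Creld2, Dnajc3, Hsp90b1 and Pdia6. ERSE-II, in 0.0365% of all promoters, stood in Herpud1 and Dnajb11. The C/EBP-ATF element, in 3.97% of all promoters, stood in 5 of the 17 genes of the Atf4 arm that had one, Aars, Asns, Chac1, Slc7a11 and Trib3, and in Herpud1. The core of the Xbp1 element, in 0.676% of all promoters, stood in none of the 35. A match is a run of letters and does not show that a factor was bound.

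The 250 bases before the start of Hspa5 and of Herpud1 are shown whole, because the first holds the ERSE of the best known target of the response and the second was the only member with 2 kinds of element. Capitals mark the elements, and each sequence is on the strand of its gene, 5′ to 3′.
Hspa5, chr2:34771840-34772089, plus strand: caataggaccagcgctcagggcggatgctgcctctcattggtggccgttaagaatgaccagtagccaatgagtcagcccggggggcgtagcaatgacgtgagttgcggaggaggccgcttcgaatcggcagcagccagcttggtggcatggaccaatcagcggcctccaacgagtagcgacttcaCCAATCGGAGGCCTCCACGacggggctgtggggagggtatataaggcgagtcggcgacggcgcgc
Herpud1, chr8:94386179-94386428, plus strand: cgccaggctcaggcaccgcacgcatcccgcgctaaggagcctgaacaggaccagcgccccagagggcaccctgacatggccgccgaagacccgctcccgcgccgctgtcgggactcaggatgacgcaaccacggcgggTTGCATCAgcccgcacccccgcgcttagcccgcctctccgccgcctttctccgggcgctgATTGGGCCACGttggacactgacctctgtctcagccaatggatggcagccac

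The other promoters with an ERSE are given with 20 bases on each side of it, because their genes had both the highest and the lowest log2 ratios of the ER arm.
Pdia6, chr12:17266471-17266529, plus strand: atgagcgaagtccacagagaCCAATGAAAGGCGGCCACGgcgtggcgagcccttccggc
Calr, chr8:84847055-84847113, minus strand: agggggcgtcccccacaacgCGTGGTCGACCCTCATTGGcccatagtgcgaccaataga
Creld2, chr15:88819500-88819558, plus strand: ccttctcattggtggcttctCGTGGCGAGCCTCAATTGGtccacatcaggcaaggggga
Canx, chr11:50325780-50325838, minus strand: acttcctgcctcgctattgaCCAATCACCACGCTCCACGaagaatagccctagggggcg
Dnajc3, chr14:118937807-118937865, plus strand: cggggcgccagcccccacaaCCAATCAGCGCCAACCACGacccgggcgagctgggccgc
Hsp90b1, chr10:86705513-86705571, minus strand: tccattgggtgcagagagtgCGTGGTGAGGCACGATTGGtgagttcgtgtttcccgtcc
In Calr, Creld2 and Hsp90b1 the element shown lies on the strand opposite to the gene, so it reads in reverse complement. Hsp90b1 held a further one on its own strand, which begins 212 bases before the start.

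Of the Atf4 arm, the stretches that hold the C/EBP-ATF element before the start of the gene are shown for 4 genes, to set beside their log2 ratios. The element of Asns reads as the known nutrient-sensing element of human ASNS does.
Aars, chr8:111033710-111033757, plus strand: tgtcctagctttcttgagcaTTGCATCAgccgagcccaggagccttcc
Asns, chr6:7693210-7693252, minus strand: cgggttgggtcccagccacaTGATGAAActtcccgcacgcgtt
Chac1, chr2:119351029-119351076, plus strand: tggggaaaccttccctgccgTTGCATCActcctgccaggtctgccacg
Slc7a11, chr3:50443652-50443699, minus strand: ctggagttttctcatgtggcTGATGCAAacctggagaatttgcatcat
Slc7a11 held a further copy on the opposite strand, the ttgcatca in lower case near the end of its stretch. In Trib3, and in a further copy in Aars, the element lay after the start.

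None of the 40 genes differed 2-fold between Phc2 L307R and wild type, against 1.11% of all 11408 measured genes, and none differed 1.5-fold, against 7.44%. A gene was measured when its probe set lay above a floor of 94.8, the median signal, on at least 1 array, and all 40 were. Slc7a11 lay below the floor in Phc2 L307R, so its log2 ratio is a bound that the floor kept under 1.5-fold. Without a floor it was -1.01. Most were bright: 38 had a mean signal of at least 500, close to the trimmed mean of each array, and among the 6803 measured genes with such a signal 4.44% differed 1.5-fold and 0.573% 2-fold. The log2 ratios, Phc2 L307R minus wild type, ran from -0.41 for Hsp90b1 to 0.58 for Pdia6. Their SD was 0.23, against 0.29 for the measured genes with a mean signal of at least 500 and 0.33 for all measured genes. The ratio was above 0 in 30 of the 40, 75%, where 59.1% of all measured genes and 60.1% of those with a mean signal of at least 500 lay above 0. The median log2 ratio was 0.14 for the 40 and 0.06 for all measured genes. No gene of the 40 lies on chromosome 4, which carries Phc2.

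**Figure D1:**
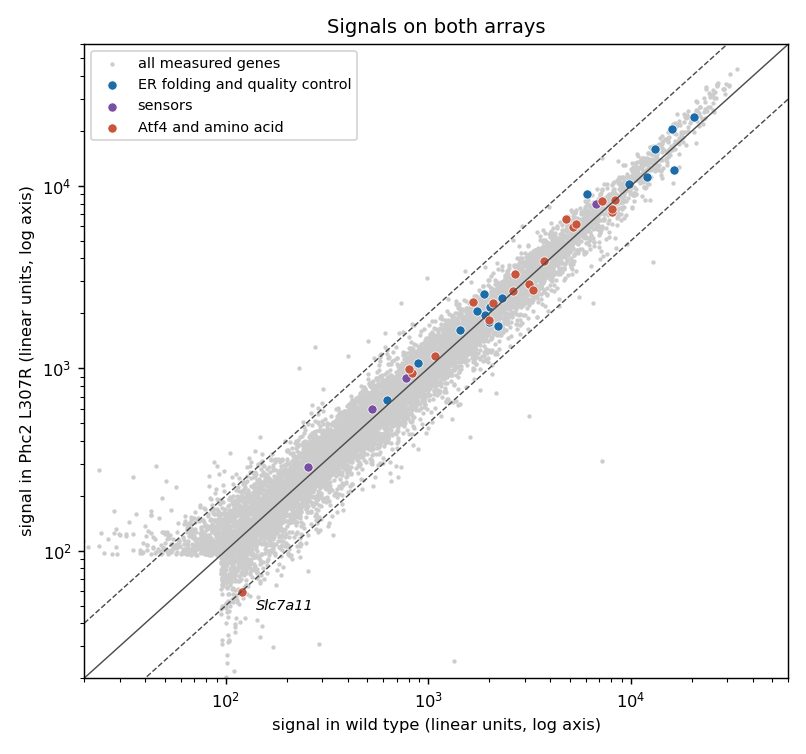
Signal of each measured gene on the Phc2 L307R array (vertical, log axis) against the wild-type array (horizontal, log axis), with the 40 stress genes in colour by arm. The solid line marks equal signals and the dashed lines 2-fold, and every stress gene but Slc7a11, which is dim on both arrays, lies well inside them.

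The only error at hand is technical, the disagreement between probe sets of a gene. Its SD on the log2 scale was 0.24 within the 40 genes and 0.32 over 5460 genes, and the larger value is the one used throughout. Of the 40 genes, 8 had a log2 ratio farther from 0 than that, where 27.7% of all measured genes and 22.5% of those with a mean signal of at least 500 did. The 5 higher ones were Pdia6, Ddit3, Aars, Herpud1 and Calr, against 16.8% of all measured genes. The 3 lower ones were Hsp90b1, Dnajc3 and Slc7a11, against 11%. With the mean over measured probe sets 3 of the 40 lay beyond that SD, Pdia6, Calr and Slc7a11. Pdia6 and Slc7a11 each had 1 measured probe set, so the mean left them as they were. The share of all measured genes beyond that SD was not counted for this mean.

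**Figure D2:**
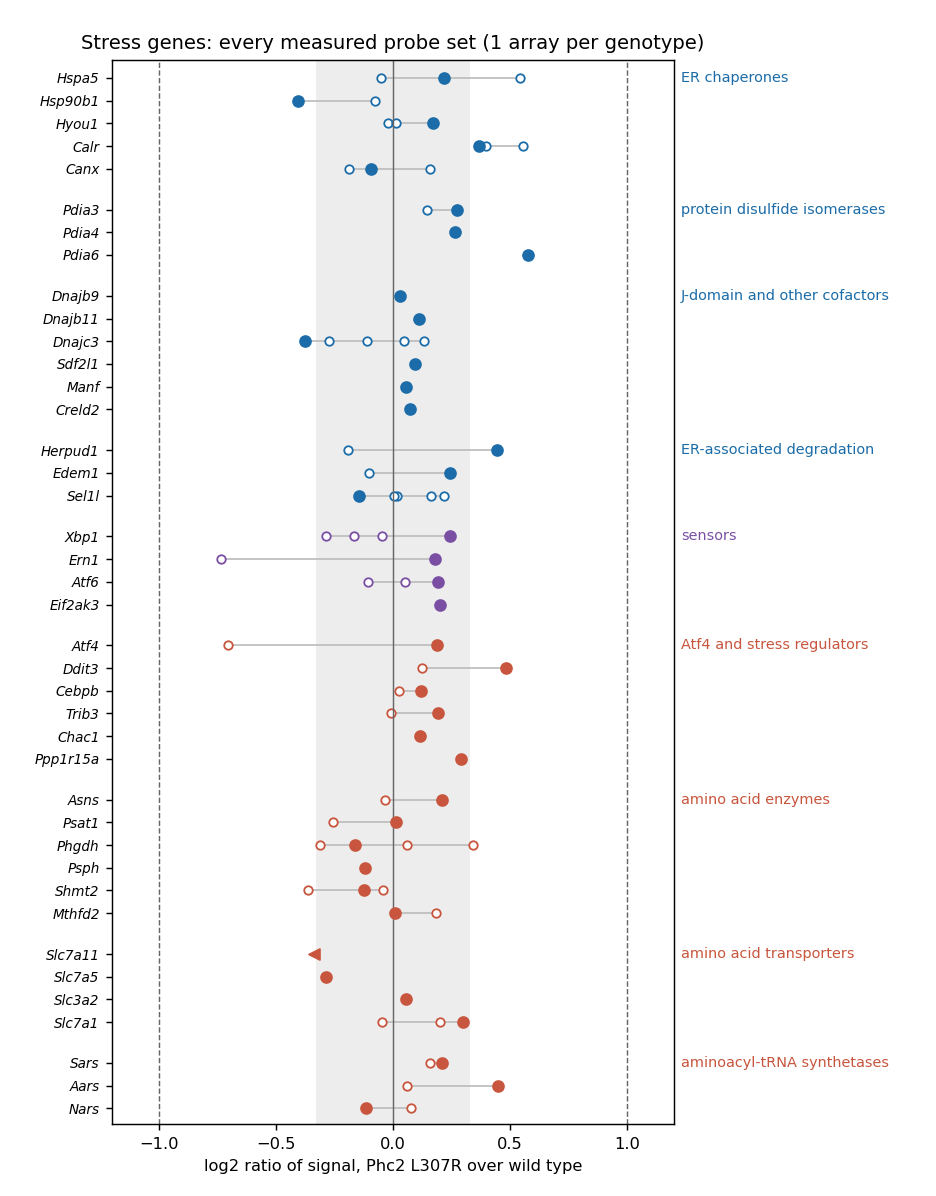
Log2 ratio of signal, Phc2 L307R over wild type, for each stress gene (rows, grouped by role). Filled points are the probe set that stands for the gene, open points its other measured probe sets, the triangle for Slc7a11 is a bound, the grey band is 1 SD between probe sets (0.32) and the dashed lines are 2-fold. No filled point reaches 2-fold, and the probe sets of Atf4 and Ern1 lie on both sides of 0.

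The sensors had close log2 ratios, from 0.18 to 0.24, with a median of 0.19. Xbp1, the factor that Ern1 activates by splicing, read 7979 in Phc2 L307R, against 6735 in wild type. Eif2ak3, the kinase Perk, had 888 in Phc2 L307R and 774 in wild type, and Atf6, the membrane-bound factor, 599 in Phc2 L307R and 525 in wild type. Ern1, the Ire1 kinase and nuclease, had 289.1 in Phc2 L307R and 255 in wild type. All 4 were slightly brighter in Phc2 L307R, by less than the SD between probe sets. The further measured probe sets did not follow: those of Xbp1 gave -0.05, -0.17 and -0.29, those of Atf6 0.05 and -0.11, and that of Ern1 -0.73, with signals of 113.3 in Phc2 L307R and 188.5 in wild type. With the mean over measured probe sets the median of the sensors was -0.01. A probe set reads the amount of a transcript and gives no measure of the splicing of Xbp1, the cutting of Atf6 or the activity of the kinases.

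The general chaperones went in both directions. Hspa5 (BiP), the Hsp70 chaperone of the ER that also holds the sensors inactive, read 23800.2 in Phc2 L307R and 20459 in wild type, a log2 ratio of 0.22. Its further probe sets gave -0.05 and 0.54, the second of these with 1670.2 in Phc2 L307R and 1146 in wild type. Hsp90b1 (Grp94), the Hsp90 of the ER, had the lowest log2 ratio of the 40 genes with the floor applied, -0.41. It had 12286 in Phc2 L307R and 16282 in wild type, and its second probe set gave -0.08. Slc7a11, whose value is a bound, was lower without a floor, at -1.01. Hspa5 and Hsp90b1, which are classical targets of the same response and both carry an ERSE, lay on opposite sides of 0 at their brightest probe sets, but under quantile normalization the log2 ratio of Hspa5 was 0.00 and that of Hsp90b1 -0.50. Hyou1 (Grp170), which helps Hspa5 exchange its nucleotide, was at 0.17, with further probe sets at -0.02 and 0.01.

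Calr and Canx are a pair of lectin chaperones that hold glycoproteins during folding. Calr, the soluble one, had 20594 in Phc2 L307R and 15967 in wild type, a log2 ratio of 0.37, and its further probe sets gave 0.40 and 0.55. No other stress gene with several measured probe sets had them all beyond the SD between probe sets on 1 side. Genes outside the stress genes did, among them Tram1, at 0.34 and 0.52, and Col1a2, from 0.40 to 0.45. The share of all genes with this trait was not counted. The ratio of the brightest probe set of Calr was 0.22 under quantile normalization, 0.30 with loess and 0.30 with centred ratios, all inside that SD. In these runs the probe set at 0.55 stayed beyond it, with 0.45, 0.49 and 0.49, and the one at 0.40 gave 0.26, 0.32 and 0.33. Canx, the membrane-bound one, had 11234 in Phc2 L307R and 11995 in wild type, -0.09, with -0.19 and 0.16 at the others. The ratio was thus above 0 at every probe set of Calr and mixed for Canx.

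The protein disulfide isomerases, which form and rearrange disulfide bonds, were all brighter in Phc2 L307R. A ratio above 0 was seen in 59.1% of all measured genes, and of the isomerases only Pdia6 lay beyond the SD between probe sets. Pdia6 had the highest log2 ratio of the 40 genes, 0.58, with 9017 in Phc2 L307R and 6052 in wild type, 1.49-fold. This value rests on 1 probe set, since its other lay below the floor on both arrays. Pdia3 (ERp57), the partner of Calr and Canx, was at 0.27, with 15910 in Phc2 L307R and 13153 in wild type, and Pdia4 (ERp72) at 0.26, with 1067 in Phc2 L307R and 888 in wild type. A second, dim probe set of Pdia3 gave 0.14.

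Of the 6 J-domain proteins and other cofactors of the ER, 5 had log2 ratios near 0 and Dnajc3 lay below 0, beyond the SD between probe sets. Dnajb9 (ERdj4) and Dnajb11 (ERdj3), J-domain proteins that bring clients to Hspa5, were at 0.03 and 0.11, and Sdf2l1, a partner of Dnajb11, was at 0.09. Manf, a small protein that is kept in the ER and can be secreted, was at 0.05 and Creld2, an ER protein known to be induced by ER stress, at 0.07. Each of these 5 genes had 1 probe set, and all 5 ratios were within 0.11 of 0. Dnajb9, Sdf2l1 and Creld2 are among the genes that respond strongly in stressed cells, and their signals were 1955, 667 and 2428 in Phc2 L307R, against 1913, 626 and 2307 in wild type. Dnajc3 (p58IPK), a J-domain protein of the ER lumen, had 1709 in Phc2 L307R and 2217 in wild type, a log2 ratio of -0.37, while its other 4 probe sets ranged from -0.28 to 0.13.

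Of the genes that clear misfolded protein from the ER, Herpud1, a membrane protein of the degradation complex, had 2565 in Phc2 L307R and 1886 in wild type, a log2 ratio of 0.44. Its second probe set had 1338 in Phc2 L307R and 1527 in wild type, -0.19. Edem1, which marks misfolded glycoproteins by their sugars, gave 0.24 and -0.10, and Sel1l, the adaptor of the ubiquitin ligase Syvn1, gave -0.15 at its brightest probe set and 0.01 to 0.22 at the other 4. In none of these 3 genes did the probe sets share a sign.

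Atf4 itself showed no settled direction. Its brighter probe set had 8235 in Phc2 L307R and 7236 in wild type, a log2 ratio of 0.19. The other, an _x_at probe set, whose probes can bind several transcripts, had 2214 in Phc2 L307R and 3615 in wild type, -0.71. Since Atf4 is controlled mostly by translation, its mRNA is in any case a poor measure of the factor. Its target genes follow. Ddit3 (Chop), the stress factor that Atf4 induces, had 2322 in Phc2 L307R and 1661 in wild type, 0.48, with 0.12 at a dimmer probe set. Ppp1r15a (Gadd34), which brings a phosphatase to eIF2-alpha, had 985 in Phc2 L307R and 807 in wild type, 0.29. Cebpb, a C/EBP factor and partner of Atf4, was at 0.12 with 0.03 at its second probe set. Trib3, a pseudokinase that restrains Atf4 and Ddit3, was at 0.19 and -0.01, and Chac1, which breaks down glutathione, at 0.11, with 1171 in Phc2 L307R and 1083 in wild type. The 6 regulators had a median of 0.19 and all lay above 0 at their brightest probe sets, but only Ddit3 lay beyond the SD between probe sets.

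The 6 enzymes of amino acid and one-carbon metabolism had log2 ratios inside the SD between probe sets at their brightest probe sets. Asns, asparagine synthetase and a sensitive target of Atf4, had 5973 in Phc2 L307R and 5170.2 in wild type, a log2 ratio of 0.21, and -0.03 at its second probe set. In the pathway from glycolysis to serine, Phgdh, Psat1 and Psph, which catalyse its successive steps, were at -0.16, 0.01 and -0.12. The 4 probe sets of Phgdh ranged from -0.31 to 0.34, and all are _x_at sets of a gene with near-identical copies, so its value is uncertain. Shmt2 and Mthfd2, which pass the carbon of serine to folate in mitochondria, were at -0.12 and 0.01. A second probe set of Shmt2 gave -0.36, with 2110 in Phc2 L307R and 2714 in wild type. The 6 enzymes had a median of -0.06, with 3 above 0 and 3 below.

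The transporters went in both directions. Slc7a11, the cystine and glutamate exchanger, was the dimmest gene of the 40, with 59.4 in Phc2 L307R and 119.8 in wild type. The first value lies below the floor, so the gene was at least 1.26-fold lower, a log2 ratio of -0.34 against the floor, and its other probe set lay below the floor on both arrays, at 92 in Phc2 L307R and 59.8 in wild type. Without a floor the ratio was -1.01, the only one of the 40 to pass 2-fold under any alternative run. Slc7a5, which imports large neutral amino acids, had 2678 in Phc2 L307R and 3269 in wild type, -0.29, while Slc3a2, its heavy chain, was at 0.05. Slc7a1, the arginine and lysine transporter, had 3305 in Phc2 L307R and 2690.3 in wild type, 0.30, with 0.20 and -0.05 or lower at its others. The median was -0.12 over the 4 genes.

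Of the cytosolic tRNA synthetases, which charge tRNA with amino acids, Aars, for alanine, had 6555 in Phc2 L307R and 4804 in wild type, a log2 ratio of 0.45, and 0.06 at its second probe set. Sars, for serine, gave 0.21 and 0.16, and Nars, for asparagine, -0.12 and 0.08. Sars was thus above 0 at both probe sets with a narrow gap between them, while the size of the difference in Aars depended on the probe set.

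Set side by side, the arms had close medians. The 17 ER folding genes had a median log2 ratio of 0.11, with 13 above 0 and 4 below, and the 19 genes of the Atf4 arm a median of 0.11, with 13 above 0 and 6 below. The difference of the medians, ER folding minus Atf4, was -0.004, and it lay between -0.02 and 0.002 under the 9 alternatives that change a value. The spread was also alike, with an SD of 0.26 in the ER arm and 0.23 in the Atf4 arm. By role, grouped with the values in view, the ER arm had medians of 0.17 for the general and lectin chaperones (5 genes), 0.27 for the disulfide isomerases (3 genes), 0.06 for the cofactors (6 genes) and 0.24 for the genes of degradation (3 genes). In the Atf4 arm the medians were 0.19 for the regulators (6 genes), -0.06 for the enzymes (6 genes), -0.12 for the transporters (4 genes) and 0.21 for the tRNA synthetases (3 genes). The SD between probe sets does not measure the error of a median over a few genes, and no test could be made of these small groups. With the mean over measured probe sets the chaperones were at 0.05, the genes of degradation at 0.07 and the regulators at 0.10, and the chaperones were at 0.00 under quantile normalization and at -0.02 without _x_at and _s_at probe sets. The transporters were at 0.05 with a floor at percentile 60, which leaves out Slc7a11.

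**Figure D3:**
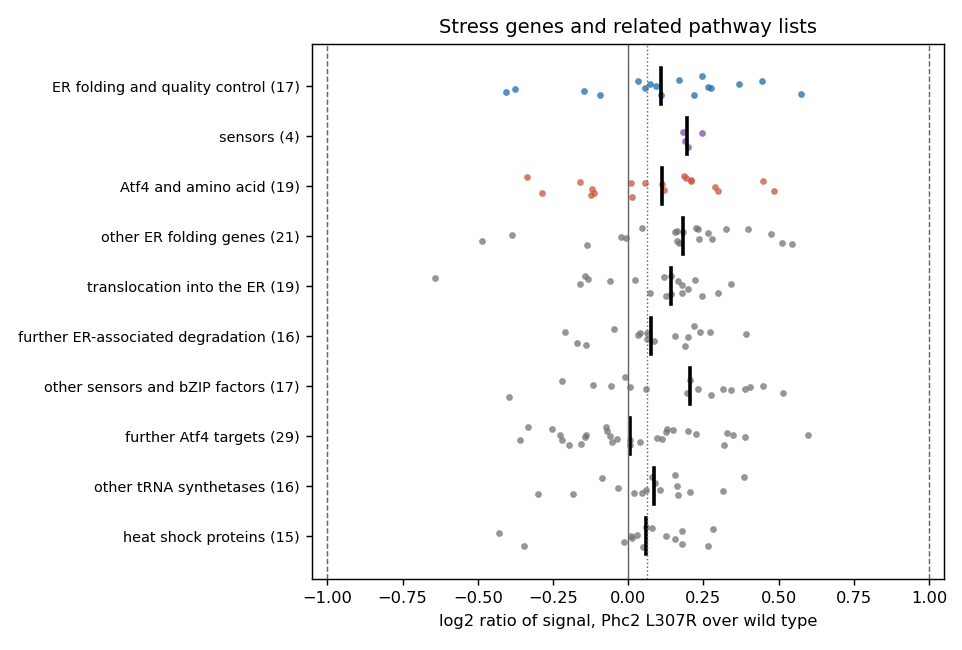
Log2 ratio of signal, Phc2 L307R over wild type, for each measured gene (points, spread vertically at random) of the 3 groups of stress genes and of 7 wider lists, with the number of genes in brackets. Thick bars are medians, the dotted line is the median of all measured genes (0.06) and the dashed lines are 2-fold. The medians run from 0.00 for the further Atf4 targets to 0.21 for the other sensors, and no gene passes 2-fold.

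How far a single probe set can be trusted was checked within the 40 genes. Of 93 probe sets that name only a member, 83 were measured. In 14 genes 1 probe set was measured, and of the other 26, 9 had all measured probe sets on the same side of 0 and 17 had them on both sides. The share on 1 side was 34.6% for the members and 45.4% for all 5460 genes with at least 2. The pooled SD between probe sets of a member was 0.24, close to the SD of 0.23 between members. In 17 of the 26 genes the brightest probe set had a higher log2 ratio than the mean of its others, where 55.5% of all genes did. The mean over probe sets brought the median of the 40 genes to 0.07, against 0.14 from the brightest.

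**Figure D4:**
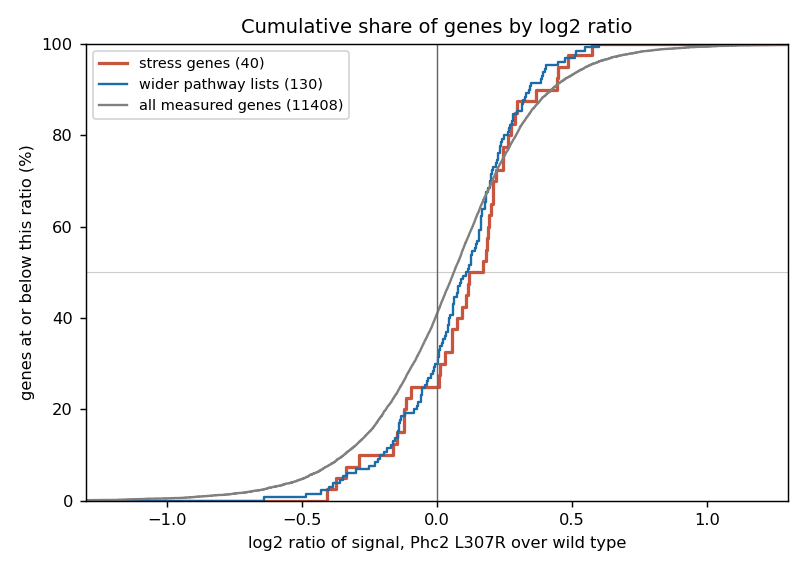
Cumulative share of genes (vertical, percent) at or below each log2 ratio of signal, Phc2 L307R over wild type (horizontal). The median is 0.14 for the 40 stress genes, 0.11 for 130 genes of the wider lists and 0.06 for all measured genes, whose curve is the least steep.

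Members with an ERSE, and members with the C/EBP-ATF element, had log2 ratios on both sides of 0. The 7 members with an ERSE ran from -0.41 to 0.58 with a median of 0.07, and 4 of them lay above 0. Over all 15 measured genes with an ERSE, these 7 among them, the median was 0.14, against 0.06 for 9249 measured genes whose promoters held none. The members with ERSE-II were Dnajb11 at 0.11 and Herpud1 at 0.44, and the median over all 8 measured genes with it was 0.01, against 0.06 without it. The 6 members with the C/EBP-ATF element ran from -0.34 for Slc7a11 to 0.45 for Aars, with 5 above 0. Over all 244 measured genes with that element the median was 0.03, against 0.07 without it. For the core of the Xbp1 element, which no member held, the median was 0.09 over 99 measured genes with it and 0.06 without it. In these terms the Hsp90b1 and Pdia6 promoters shown above hold the same ERSE pattern, and their genes lay at the lowest and the highest ratio of the ER arm. Both were picked by their values. The other probe set of Hsp90b1 gave -0.08, and Pdia6 had 1 measured probe set.

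Of 130 measured genes in 7 wider lists, written from general knowledge, none had a 2-fold difference at its brightest probe set. A 1.5-fold one was seen in 2, Sesn2 and Sec11c, or 1.54%, against 7.44% of all measured genes and 4.44% of those with a mean signal of at least 500. One list, of heat shock proteins, was added for contrast, and the other 6 hold 116 measured genes, both of these among them. The medians of the 7 lists ran from 0.00 to 0.21, against 0.06 for all measured genes. The 21 measured further ER folding genes had a median log2 ratio of 0.18, with 16 above 0. Fkbp14, a prolyl isomerase of collagen folding, was at 0.55 and Prkcsh, the beta subunit of glucosidase II, at 0.51, while Cnpy2 was at -0.39 and the J-domain protein Dnajc1 at -0.49. Both Cnpy2 and Dnajc1 had a further probe set above 0, at 0.37 and 0.71. The 19 genes of translocation into the ER had a median of 0.14, with 14 above 0. Tram1, a membrane protein of the translocon, was at 0.34 and Sec11a, a catalytic subunit of signal peptidase, at 0.30, whereas Sec11c, the other catalytic subunit, was at -0.64 with 676 in Phc2 L307R and 1055 in wild type, and Srp9, of the signal recognition particle, at -0.16. The 2 forms of this subunit therefore lay on opposite sides of 0, each on 1 probe set. The 16 further genes of ER-associated degradation had a median of 0.08, with 12 above 0, from Ufd1 at -0.21 and Edem3 at -0.17 to Ube2g2 at 0.27 and Faf2 at 0.39. A further probe set gave 0.01 for Ufd1 and 0.59 for Edem3.

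The 17 measured further sensors and bZIP factors had a median of 0.21, with 12 above 0, and 0.06 with the mean over probe sets. Eif2b5, a subunit of the exchange factor of eIF2, was at 0.52 and Creb3l2, a factor related to Atf6, at 0.45, while Eif2ak4, the sensor of amino acid shortage, was at -0.40 and Atf3, a stress factor downstream of Atf4, at -0.22. The 29 further Atf4 targets had a median of 0.00, with 15 above 0 and 14 below. Sesn2, an inhibitor of mTORC1 signalling and also a p53 target, was at 0.60 with 1259 in Phc2 L307R and 831 in wild type, and 0.23 at its second probe set, and Atf5 was at 0.39. The glutamine transporter Slc1a5 was at -0.36 and the lipoprotein receptor Vldlr at -0.33, with probe sets of Vldlr from -0.42 to 0.63. The 16 other cytosolic tRNA synthetases had a median of 0.09, with Vars at 0.39, Lars at 0.32, Farsb at -0.18 and Iars at -0.30, though other probe sets reached 0.40 for Farsb and 0.17 for Iars. The heat shock list had a median of 0.06 over 15 genes. It holds mostly cytosolic and mitochondrial chaperones, but also Serpinh1, a collagen chaperone of the ER that the ER folding list shares, and without it the median was 0.05 over 14 genes. Its ends were Hspd1 at 0.28, Hspb8 at 0.27, Hspa4 at -0.35 and Cryab at -0.43. Further probe sets passed 2-fold, at -1.10 in Hspa4, -1.37 in Hspa8 and -1.06 in Dnaja1. The brightest probe sets of Hspa8 and Dnaja1 gave 0.03 and 0.06. Among the further Atf4 targets, Slc6a9 was at 0.23, with 1.14 at its other measured probe set.

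The label of the cells was checked against markers. All 10 fibroblast markers were measured, Vim at 41327 in Phc2 L307R and 30907 in wild type and Col1a1 at 21724 in Phc2 L307R and 16448 in wild type, and their summed signal was 174365 in Phc2 L307R and 136180 in wild type, with a median log2 ratio of 0.36. Of the 10, 7 lay above 0 and 3 below, Pdgfrb at -0.34, Pdgfra at -0.12 and S100a4 at -0.12. A further probe set gave 0.33 for Pdgfrb and 0.77 for Pdgfra. Among the higher markers, Vim was at 0.42 and Fn1 at 0.42, with a further probe set at -0.22 for Vim and -0.33 for Fn1. Most measured markers of cartilage and bone, cells that also secrete much matrix, were higher on the Phc2 L307R array. Of 13 chondrocyte markers 12 were measured and 11 lay above 0, with a median of 0.91, and Col9a2 was below the floor on both arrays. Cnmd and Matn1 lay below the floor in wild type, so their ratios are bounds. Matn3 was at 0.11, with -0.34 at its other measured probe set. Sox9 lay below 0, at -0.29, with -0.08 at its other probe set. The chondrocyte markers summed to 9892 in Phc2 L307R and 6404 in wild type, of which Col2a1 gave 5685 and 4037. Of the osteoblast markers, Dmp1 and Phex were below the floor, and Sp7 was below it in wild type, so its ratio is a bound. The 4 measured osteoblast markers had a median of 0.94 and a summed signal of 1602 in Phc2 L307R and 560 in wild type. Their part in the values of Calr, Pdia6 and the other ER genes was not tested, and in a whole culture the share of a cell type and the RNA per cell cannot be told apart. The 5 measured macrophage markers had a median of 0.57 and summed to 960 in Phc2 L307R and 642 in wild type, with Ptprc, C1qa and C1qb below the floor. The 3 measured endothelial markers had a median of 0.05 and summed to 542 in Phc2 L307R and 587 in wild type, with Pecam1 and Cdh5 below the floor and Emcn at -1.15, with 94.9 in Phc2 L307R and 210.8 in wild type. The 2 measured epithelial markers had a median of -0.21 and summed to 696 in Phc2 L307R and 881 in wild type, with Epcam and Cdh1 below the floor. All 4 skeletal muscle markers were measured, with a median of 0.15 and a sum of 5674 in Phc2 L307R and 5501 in wild type, and Myog had 1828 in Phc2 L307R and 1809 in wild type. The 3 measured neuronal markers had a median of 0.43 and summed to 2477 in Phc2 L307R and 2038 in wild type, with Snap25 below the floor. Map2 was at -1.31, with 359 in Phc2 L307R and 891 in wild type, and Stmn2 at 1.01, with 1721 in Phc2 L307R and 853 in wild type. Phc2 itself had 4079 in Phc2 L307R and 3184 in wild type at 1 probe set and 3103 in Phc2 L307R and 3145 in wild type at the other, which a missense change need not alter.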

How the data were processed

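Per the labels, each array held biotin-labelled cRNA made from total RNA. The deposited file is a table of intensity, linear signals of the probe sets of 2 arrays. Affymetrix Expression Console and MAS5 appear in the submitters' processing notes, without versions; how the arrays were scaled is not given there. Both arrays had a mean of 500.0 once 2% of probe sets at either end were trimmed. The 64 controls were dropped; of the remaining 45037 probe sets, 34945 carried 1 symbol, brought up to date through a RefSeq table of GRCm38.p6. Signals below the floor were raised to it before log2 was taken, and a fold from such a value is a bound. Genes were counted by size alone, at 2-fold and 1.5-fold. Median signals were 94.3 for Phc2 L307R and 94.8 for wild type. The number of arrays limits the precision, and no detection calls were used.

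The members and lists were chosen with earlier results of these data known. Every member is named. Of each wider list the 2 highest and 2 lowest measured genes are named, and any other gene, the markers of a cell type aside, was picked with its values in view. Tried as alternatives were quantile normalization, loess on the mean signal (span 0.4, 3 iterations), centring, a floor at percentile 40, at percentile 60 or absent, the floor as a pseudocount, the mean over probe sets, the removal of _x_at and _s_at probe sets, and thresholds of 1.5-fold and 3-fold. Calculations used Python 3.11.15 with statsmodels 0.14.6 and were tested on simulated data.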

Additional observations from a re-analysis of the deposited data

How the results depend on the processing

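No member differed 2-fold under 7 of the 9 alternatives that change a value, and 1 did, Slc7a11, without a floor or with one at percentile 40; its log2 ratio was then -1.01. At thresholds of 1.5-fold and 3-fold the count was 0. The median of the ER arm lay between 0.05 and 0.11 and that of the Atf4 arm between 0.05 and 0.12, both lowest with centred ratios. The median of the sensors, run under alternatives added after seeing the data, was -0.0105 with the mean over measured probe sets. Of 358 member ratios under alternatives, 354 moved by less than the SD between probe sets; the other 4 were Slc7a11 as above and, with the mean over probe sets, Ern1 at -0.28 and Atf4 at -0.26. In 10 members the sign turned under at least 1 alternative: Dnajb9, Manf, Psat1, Mthfd2 and Slc3a2 with centred ratios (Manf, Psat1 and Mthfd2 with loess too), Sel1l, Xbp1, Ern1, Atf4 and Psat1 with the mean over probe sets, and Hyou1 without _x_at and _s_at probe sets. Beyond the SD between probe sets lay 8 members, 3 if probe sets were averaged and 7 to 9 in the other cases; this count and the medians by role were run under alternatives after seeing the data. No paired analysis was possible because each genotype has 1 array.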

Other observations

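Probe sets that name a member together with another gene gave no gene a value. For Phgdh there were a pair of these, shared with the copies Gm8096 and Gm6756, with signals of 4930 in Phc2 L307R against 5414 in wild type and 1741 in Phc2 L307R against 1983 in wild type, at log2 ratios of -0.14 and -0.19. One was shared by Aars and Exosc6, with 1245 in Phc2 L307R and 1276 in wild type, at -0.04.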
